A study of Mus musculus with 8 samples.

Results

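The 38 genes described here encode the proteins that license origins of replication and copy DNA in S phase. They were taken by symbol, through the RefSeq accessions of the array probes, and all 38 were found, with 42 probes, among the 26460 genes and transcripts tested. They comprise 6 subunits of the MCM helicase, 4 origin licensing genes, 6 helicase activation genes, 5 genes of the sliding clamp and its loader and 4 of DNA polymerase alpha and primase. The others are 5 genes of nucleotide supply, 2 of chromatin assembly, 2 of lagging strand maturation and 4 of the E2F and cyclin E group. RNA came from 3T3-L1 cells, a mouse preadipocyte line that becomes fat cells after hormonal induction. Unmodified cells (WT) were set against cells (sh8) with a stable transfection of the hairpin slincRAD-shRNA-8, which targets the noncoding transcript slincRAD. Both lines were sampled at day -2 while growing, at day 0 when confluent, and at days +2 and +4. Induction of confluent cells used medium with dexamethasone at 1 µM, isobutylmethylxanthine at 0.5 mM and insulin at 167 nM, so all arrays of days +2 and +4 share these agents. Before that the cells grew with newborn calf serum at 10%. There was 1 array for each line and day, 8 in all, and only 1 hairpin line with no control hairpin among them. Whether sh8 is a clone or a pool is not given in the sources, and slincRAD itself was not analysed here, so the labels were not checked against it.

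In G1 phase the origin recognition complex, Cdc6 and Cdt1 load the MCM hexamer onto origins. Cyclin E kinase, Mcm10, Cdc45 and the GINS complex then turn it into an active helicase. Polymerase alpha-primase lays the primers, the RFC clamp loader places the PCNA clamp, and Fen1 and Lig1 join the lagging strand fragments. E2F factors bind many of these genes' promoters and switch them on as cells pass from G1 into S phase. Confluent 3T3-L1 cells stop dividing and, when induced, re-enter the cycle for a short period of clonal expansion before they become fat cells. The comparisons asked which replication genes came back after induction in WT cells, and whether they did so in sh8 cells.

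The promoters of 31 of the 38 genes were matched by symbol in a RefSeq table (GRCm38.p6) of windows from 250 bases before to 50 bases after the start of transcription. Each window was searched on both strands for the E2F words TTTCCCGC, TTTCGCGC, TTTGCCGC and TTTGGCGC, which can overlap. Such a word stood in 12 of the 31 (38.7%), against 2.61% of the 27025 genes in the table and 2.27% of its 32851 windows. The 12 were Mcm3, Mcm5, Mcm6, Mcm7, Orc1, Cdc6, Cdt1, Gins3, Rfc3, Pola1, Lig1 and E2f2. CCAAT or its reverse ATTGG stood in 18 of the 31 (58.1%), against 41.1% of all genes. The 170 bases before the start are given below for 5 licensing and helicase genes whose courses are described in the next paragraphs, and for Gins3, which holds a word but followed another course. Capitals mark the E2F words on either strand, and in Mcm5 and in the first capital run of Mcm6 a pair of words overlaps.
Mcm5, chr8:75109339-75109508, plus strand: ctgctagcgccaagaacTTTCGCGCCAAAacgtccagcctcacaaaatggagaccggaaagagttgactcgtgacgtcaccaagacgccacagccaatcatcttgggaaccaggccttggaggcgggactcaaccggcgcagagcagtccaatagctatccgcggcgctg
Mcm6, chr1:128359706-128359875, minus strand: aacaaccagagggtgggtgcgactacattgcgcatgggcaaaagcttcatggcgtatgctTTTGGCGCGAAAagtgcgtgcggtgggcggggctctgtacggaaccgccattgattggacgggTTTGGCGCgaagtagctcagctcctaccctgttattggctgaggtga
Mcm7, chr5:138171884-138172053, minus strand: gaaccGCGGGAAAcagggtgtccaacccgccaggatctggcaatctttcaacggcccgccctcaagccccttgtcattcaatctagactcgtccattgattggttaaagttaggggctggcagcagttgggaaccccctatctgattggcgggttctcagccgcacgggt
Orc1, chr4:108579284-108579453, plus strand: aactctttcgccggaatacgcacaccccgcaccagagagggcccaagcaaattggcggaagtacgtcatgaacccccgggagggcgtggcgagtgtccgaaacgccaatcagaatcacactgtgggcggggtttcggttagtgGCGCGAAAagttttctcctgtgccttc
Cdc6, chr11:98907981-98908150, plus strand: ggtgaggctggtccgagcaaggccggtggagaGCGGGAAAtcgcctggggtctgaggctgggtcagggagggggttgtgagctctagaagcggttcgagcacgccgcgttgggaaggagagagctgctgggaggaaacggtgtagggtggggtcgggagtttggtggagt
Gins3, chr8:95633389-95633558, plus strand: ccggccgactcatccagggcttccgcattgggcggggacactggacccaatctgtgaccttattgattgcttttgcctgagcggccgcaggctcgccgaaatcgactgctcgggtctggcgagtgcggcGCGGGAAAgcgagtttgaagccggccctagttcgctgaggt
The 12 genes with a word had a median log2 difference between sh8 and WT of -2.10 at day +4, and the 19 without one had -1.79. A match describes the letters of the window and is no evidence that a factor was bound.

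The arrays of days -2 and 0 were scanned together and those of days +2 and +4 together, so each comparison of the lines, of day 0 with day -2 and of day +4 with day +2 lies within a scan. The step from day 0 to day +2 cannot be told apart from the change of scan. Any comparison of the days before induction with those after it likewise runs across the scans. All 38 genes were well above background on all 8 arrays, and levels are log2 intensities relative to the array's own 75th percentile, which was between 760 and 1239. All 8 fibroblast and preadipocyte markers were above background on every array, with medians from 5.66 to 6.47. Markers of lung epithelium, which this cell line should lack, were above background for 4 to 6 of 11 genes on days -2 and 0 and for 11 of 11 on days +2 and +4 in both lines. Their summed level, in multiples of the 75th percentile, was 6.93 to 10.6 on the first scan and 17.4 to 23.4 on the second. Most of the first-scan sum came from 1 gene, Lamp3 (3.35 in WT at day -2), whose step from day 0 to day +2 was only 0.18. Over both lines all 11 were higher at day +2 than at day 0, 8 of them by limma with an adjusted p under 0.05. Their median log2 difference was 4.26, and Sftpa1, above background on all 8 arrays, was 41.1-fold higher. Sftpc (479-fold) was above background on 4 arrays only and Sftpb (117-fold) on 5. Such genes passed the filter through the days where they were high, so their folds and tests rest on day 0 values mostly at the background. The lung list was chosen after lung genes were seen on these arrays. The 4 red blood cell markers summed to 0.338 to 0.659 and then to 1.97 to 3.36, with 2 and then 4 above background. From day 0 to day +2 over both lines, 3 of 7 leukocyte markers were also higher by limma (adjusted p under 0.05) and 1 lower. Among the 3 were Cd52 (11.5-fold) and Lyz2 (6.53-fold), each above background on 4 arrays only. Of 4 endothelial markers 1 was higher by limma, Cdh5 (11.8-fold, above background on 4 arrays only), and 0 lower. The part of such RNA in the step from day 0 to day +2 was not tested. In these whole cultures fewer cells in S phase and less RNA per cell cannot be told apart.

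At confluence nearly the whole set was lower in both lines, and after induction it came back in WT but in smaller part, and not up to day +4, in sh8. From day -2 to day 0, 27 of the 38 genes were at least 2-fold lower in WT (4.83% of all genes were) and 31 in sh8 (4.79%), with median log2 differences of -1.43 and -1.96. From day 0 to day +2, 29 were at least 2-fold higher in WT (11.5% of all genes), with a median difference of 1.32. In sh8 11 were (14.5% of all genes), with a median of 0.70. From day 0 to day +4 the count was 25 in WT (16.3%) and 2 in sh8 (15.5%), with medians of 1.22 and -0.10. These 2 were Pcna and Dut. At day +4 no WT gene of the 38 lay below its own day 0 level, while 23 of 38 did in sh8. The share of all genes below their day 0 level is not given here, so these counts alone do not set the members apart. These changes within a line compare single arrays and carry no test, and the changes from day 0 of a line share its day 0 array.

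**Figure D1:**
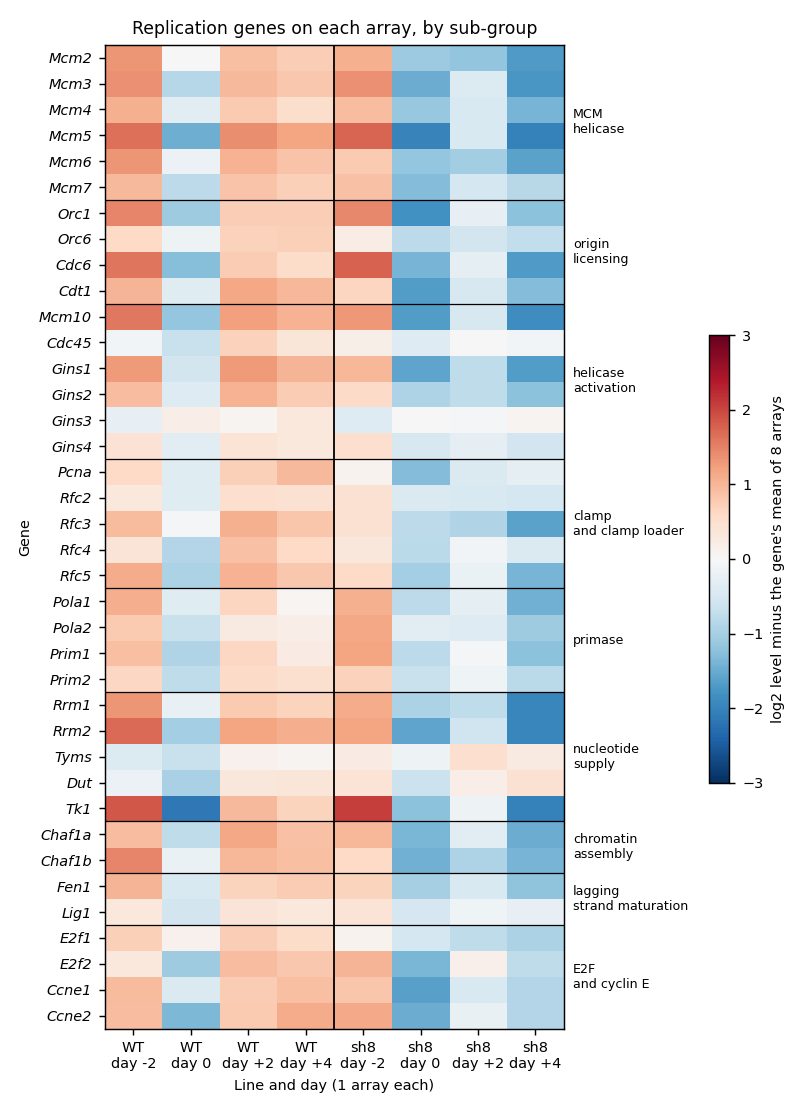
Each row is 1 gene and each column 1 array, and colour is the log2 level minus that gene's mean over the 8 arrays, from blue (lower) to red (higher), with lines between sub-groups. The WT columns of days +2 and +4 are red for nearly all rows, while the sh8 column of day +4 is blue for nearly all but Gins3, Tyms and Dut.

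In the tests of a step between days, the lines stood as the pair of arrays of each day. Their p-values set the step against how the line difference varied between days, so genes whose lines parted pass less readily. Over both lines together, the step from day -2 to day 0 had a median of -1.74. No member passed by limma with Benjamini-Hochberg adjustment (lowest adjusted p = 0.0686), and 0.00% of all genes passed in either direction. At an unadjusted p under 0.05, 32 members were lower and 1, Gins3, was higher, against 10.2% and 15.2% of all genes. From day 0 to day +2 the median over both lines was 0.95 and 1 member passed. This was Dut (1.08 ± 0.21 SE, 2.11-fold higher, adjusted p = 0.0395), while 9.00% of all genes passed as higher and 2.89% as lower. No member passed with no filter on dim probes (lowest adjusted p = 0.0557) or without day +4 (0.0648). Unadjusted, 16 members were higher and 0 lower, against 22.0% and 9.75% of all genes. From day +2 to day +4 the median was -0.38, and 0 members passed by limma, adjusted or unadjusted. Adjusted, 0.00% of all genes passed, and unadjusted 3.80% were higher and 1.63% lower. That step held unlike parts, with medians of -0.14 in WT and -0.68 in sh8. No WT gene was at least 2-fold lower at day +4 than at day +2 (0.703% of all genes were), against 11 in sh8 (2.20%).

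The share of the loss at confluence that was made up later was computed on the log2 scale for genes at least 2-fold lower at day 0 than at day -2. In WT the 27 such genes had made up a median of 84.2% by day +2, from 64.9% for Pola2 to 145% for E2f2, and 80.6% by day +4. In sh8 the median of 31 genes was 35.8% by day +2 and -8.94% by day +4, and 20 of the 31 were below their day 0 level by then. The range in sh8 at day +4 ran from -65.8% for Rfc3 to 104% for Dut. A line's day 0 array both picked these genes and entered the loss and the return. A low reading there would by itself look like a return, and each share runs across the change of scan.

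**Figure D2:**
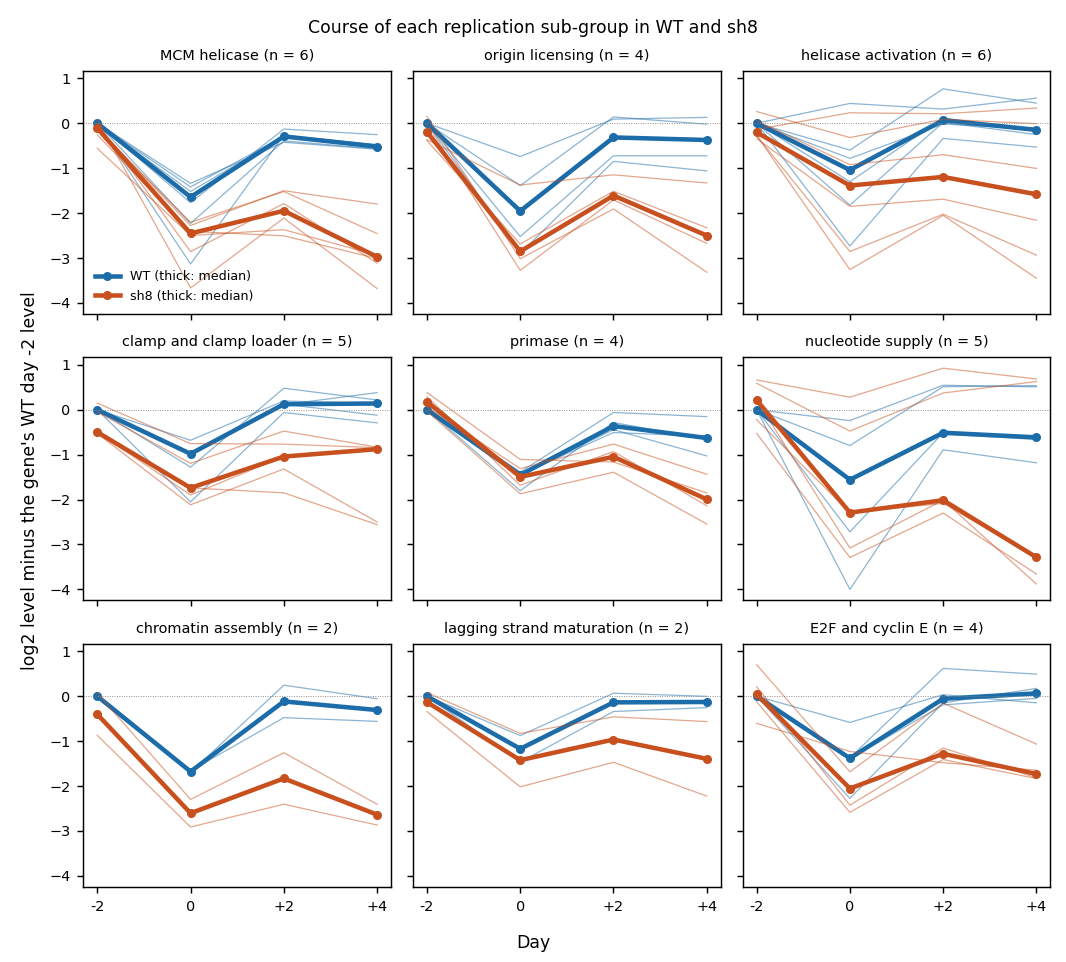
Each panel is 1 sub-group, with the day on the horizontal axis and the log2 level minus the gene's own WT day -2 level on the vertical axis. Thin lines are genes and thick lines their median, in blue for WT and orange for sh8, and the lines part most at day +4 in the MCM and nucleotide supply panels.

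The 6 subunits of the MCM helicase, the ring that unwinds the duplex, were all lower at confluence and all higher again in WT at days +2 and +4, but differed in sh8. Mcm5 stood at 1.17, -1.97, 0.90 and 0.69 in WT at days -2, 0, +2 and +4. In sh8 it stood at 1.25, -2.50, -0.94 and -2.51, so that at day +4 it was back at its day 0 level and 9.17-fold lower than WT. The lines differed by 0.08 at day -2, by -0.53 at day 0 and by more after induction. Mcm2 was at 2.40, 1.06, 1.98 and 1.82 in WT and at 2.14, -0.01, -0.10 and -0.61 in sh8, where it did not come back at day +2. Mcm6 was at 4.18, 2.66, 3.89 and 3.70 in WT and at 3.62, 1.68, 1.81 and 1.25 in sh8, lower in sh8 on all 4 days. Mcm7, whose lines lay closest at day +4, was at 3.16, 1.39, 3.03 and 2.91 in WT and at 3.07, 0.89, 1.66 and 1.36 in sh8. At day 0 all 6 subunits were already lower in sh8, with a median of -0.71. At day +4 all 6 were at least 2-fold lower in sh8, by -1.54 to -3.20 with a median of -2.44 (5.17% of all genes were). At day +2 all 6 were too, with a median of -1.62 (5.42%). By day +4 WT had made up a median of 71.4% of the loss at confluence and sh8 -10.6%.

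Origin licensing genes behaved alike. Cdt1, which brings MCM to the origin, was at 3.61, 2.22, 3.75 and 3.59 in WT and at 3.22, 0.92, 2.10 and 1.28 in sh8. By day +4 WT was within 0.02 of its day -2 level, while sh8 lay 4.95-fold below WT. Orc6, a subunit of the origin recognition complex, was at 3.06, 2.31, 3.15 and 3.19 in WT and at 2.69, 1.68, 1.91 and 1.73 in sh8, lower on every day. Orc1, the largest subunit of that complex, was at -1.96, -4.48, -2.68 and -2.68 in WT and at -1.97, -5.23, -3.67 and -4.63 in sh8. Cdc6, the ATPase that loads MCM, was at -0.29, -3.18, -1.13 and -1.35 in WT and at -0.14, -3.30, -2.19 and -3.60 in sh8. All 4 were at least 2-fold lower in sh8 at day +4 (-1.46 to -2.31), against 5.17% of all genes. Yet 3 of the 4 were at least 2-fold higher at day +2 than at day 0 in sh8 as well (14.5% of all genes). Orc1 was 3.48-fold higher at day +2 in WT and 2.96-fold in sh8, after which only WT held the level.

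Helicase activation genes split. Mcm10, a scaffold at the firing origin, was at 1.43, -1.30, 1.09 and 0.90 in WT and at 1.16, -1.83, -0.62 and -2.02 in sh8, which was 7.57-fold lower at day +4. The GINS subunits Gins1 and Gins2 differed by -2.69 and -1.99 at day +4, and Gins1 stood at -3.10 in sh8 against -0.41 in WT. Gins4 differed by less (-0.88), and Gins3 hardly differed at all. Gins3 was at 4.07, 4.51, 4.38 and 4.62 in WT and at 3.93, 4.30, 4.28 and 4.40 in sh8. It is the 1 member that was not lower at confluence in either line, so the 4 GINS transcripts had unlike courses on these probes. Cdc45, which joins MCM and GINS, was at -3.48, -4.07, -2.71 and -3.03 in WT and at -3.22, -3.80, -3.39 and -3.49 in sh8. Its loss at confluence was under 2-fold in both lines, and at day +2 it was 2.57-fold above day 0 in WT and 1.33-fold in sh8.

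Among the clamp and clamp loader genes, Pcna, the ring that holds the polymerase on DNA, came back in both lines. It stood at 5.29, 4.33, 5.40 and 5.67 in WT and at 4.79, 3.39, 4.25 and 4.41 in sh8, and from day 0 to day +4 it was 2.53-fold and 2.03-fold higher. The sh8 course thus ran below the WT course at every day by -0.50 to -1.26. Rfc3, a small subunit of the clamp loader, was at -0.55, -1.53, -0.43 and -0.67 in WT and at -1.05, -2.29, -2.40 and -3.11 in sh8. In sh8 it stayed below its day 0 level and ended 5.41-fold below WT. Rfc5 was 4.62-fold lower in sh8 at day +4, Rfc4 2.07-fold and Rfc2 1.98-fold. Rfc2 was at -1.18, -1.86, -0.98 and -1.04 in WT and at -1.03, -1.93, -1.95 and -2.02 in sh8, flat from confluence on in sh8.

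Of the polymerase alpha-primase genes, which make the primers, 0 of 4 were at least 2-fold lower in sh8 at day +2 (5.42% of all genes). At day +4 all 4 were (5.17%), and the medians of the 2 days were -0.68 and -1.38. Pola1, the catalytic subunit, was at 1.61, 0.15, 1.17 and 0.58 in WT and at 1.57, -0.27, 0.22 and -0.94 in sh8. It is the WT gene that kept least of its return, 69.6% of the loss at day +2 and 29.4% at day +4. Pola2, the accessory subunit, was at -2.69, -4.13, -3.19 and -3.28 in WT and at -2.30, -3.79, -3.85 and -4.54 in sh8. It was higher in sh8 before induction and lower after it. The primase subunits Prim1 and Prim2 were 2.77-fold and 2.43-fold lower in sh8 at day +4.

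Nucleotide supply genes were unlike each other. At day +4, 3 of 5 were at least 2-fold lower in sh8 (5.17% of all genes were) and 2 nearly equal. Rrm2, the regulated subunit of ribonucleotide reductase, was at 4.11, 1.39, 3.60 and 3.50 in WT and at 3.58, 0.82, 1.81 and 0.46 in sh8, 8.24-fold lower at day +4. Its partner Rrm1 was 6.16-fold lower. Tk1, the thymidine kinase of the salvage pathway, had the deepest loss at confluence in WT, with 3.62, -0.38, 2.73 and 2.44 there. In sh8 it was at 3.84, 0.54, 1.61 and -0.26, above WT before induction and 6.49-fold below it at day +4. Dut, which removes dUTP, was at 3.55, 2.76, 4.07 and 4.09 in WT and at 4.14, 3.08, 3.93 and 4.18 in sh8. Tyms, which makes dTMP, was at -0.53, -0.77, 0.01 and -0.02 in WT and at 0.13, -0.25, 0.39 and 0.15 in sh8. These were the only 2 of the 38 genes that were not lower in sh8 at day +4, where they differed by 0.09 and 0.18.

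In chromatin assembly factor 1, which places histones on new DNA, both subunits were low in sh8 at day +4, by -2.35 for Chaf1a and -2.31 for Chaf1b (-3.10 for its second probe). Chaf1a was at -0.68, -2.37, -0.43 and -0.73 in WT and at -0.61, -2.97, -1.94 and -3.08 in sh8. Chaf1b was at 2.44, 0.79, 1.97 and 1.89 in WT and at 1.57, -0.47, 0.04 and -0.42 in sh8, and its sh8 level was the lower already at day -2, by -0.87. In lagging strand maturation the flap nuclease Fen1 was at 3.39, 1.93, 3.05 and 3.14 in WT and at 3.05, 1.38, 1.92 and 1.17 in sh8, 3.92-fold lower at day +4. The ligase Lig1 was at 1.07, 0.19, 1.14 and 1.07 in WT and at 1.15, 0.24, 0.61 and 0.51 in sh8, only 1.48-fold lower.

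The E2F and cyclin E genes, which drive entry into S phase, came back in part in sh8, apart from E2f1. E2f1, an activating E2F factor, was at 0.24, -0.34, 0.28 and 0.10 in WT and at -0.36, -0.99, -1.24 and -1.40 in sh8, where it went on down after induction. E2f2 was at -1.31, -2.68, -0.69 and -0.82 in WT, above its growing level, and at -0.61, -2.99, -1.47 and -2.38 in sh8. Ccne1, a cyclin that activates Cdk2, was at 2.59, 1.20, 2.39 and 2.54 in WT and at 2.46, 0.00, 1.18 and 0.75 in sh8. From day 0 to day +2 it was 2.30-fold higher in WT and 2.26-fold higher in sh8. Ccne2 was at -1.55, -3.83, -1.70 and -1.38 in WT and at -1.34, -3.98, -2.71 and -3.37 in sh8. For E2f2, Ccne1 and Ccne2 the share of the loss made up in sh8 had a median of 48.2% at day +2 and 25.9% at day +4, against 93.5% and 108% in WT. All 4 were at least 2-fold lower in sh8 than in WT at day +4, by -1.50 to -1.99 (5.17% of all genes were).

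**Figure D3:**
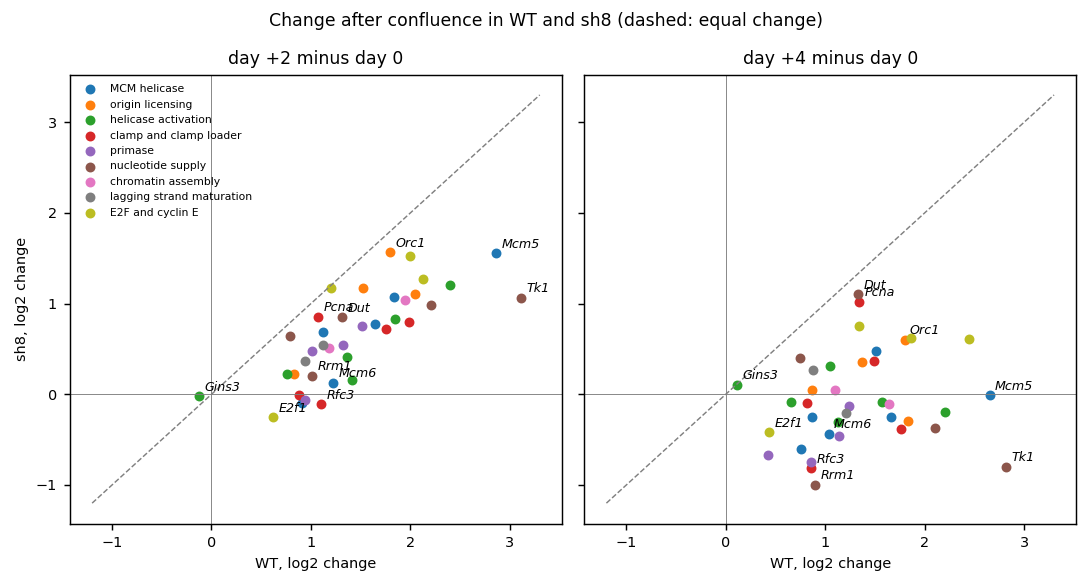
Each point is 1 of the 38 genes, with its log2 change from day 0 in WT on the horizontal axis and in sh8 on the vertical axis, at day +2 (left) and day +4 (right), coloured by sub-group. Nearly all points lie below the dashed line of equal change, and at day +4 most lie near or below 0 in sh8 (median -0.10) and above 0 in WT (median 1.22).

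Over all 4 days, 8 of the 38 genes were lower in sh8 by limma with Benjamini-Hochberg adjustment over all genes and 0 were higher. Of all genes 10.3% passed as lower and 16.8% as higher. The median difference of the 38 was -0.94, against 0.13 for all genes tested, and 36 lay below 0, as did 10517 of all 26460. Chaf1b was lower in sh8 by 1.59 (± 0.27 SE, adjusted p = 0.0210), Mcm6 by 1.52 (± 0.36, 0.0385) and Rfc3 by 1.42 (± 0.37, 0.0491). Cdt1 was lower by 1.41 (± 0.32, adjusted p = 0.0361), Ccne1 by 1.08 (± 0.28, 0.0483) and E2f1 by 1.07 (± 0.22, 0.0284). Pcna was 1.95-fold lower (-0.96 ± 0.16, adjusted p = 0.0199) and Orc6 1.90-fold (-0.92 ± 0.22, 0.0377). At an unadjusted p under 0.05, 22 members were lower and 1 higher, against 16.5% and 27.3% of all genes. The higher member was Tyms (0.43 ± 0.12, adjusted p = 0.0506). Genes that parted late, such as Mcm5 (-1.37 ± 0.57, adjusted p = 0.133), missed the threshold although their day +4 differences were larger. Of the 8, E2f1 (adjusted p = 0.0297) alone passed with the scan as a block in place of day, and the other 7 had an adjusted p of 0.0648 to 0.208. With no replicate of a line and day, these p-values measure how the line difference varied from day to day, which may be technical. Without day 0, day +2 or day +4, and on the first scan alone, 0 of the 38 passed by limma (18, 8, 14 and 10 unadjusted), while on the second scan alone 25 did. Markers of other cell types also differed between the lines. All 7 leukocyte markers were higher in sh8 (5 passed), with a summed level, mostly Itgam, of 5.98 to 7.37 against 4.48 to 5.52 in WT. All 4 endothelial markers were higher too (2 passed), summed to 1.52 to 1.90 against 1.01 to 1.30. Of 8 fat cell markers 3 passed as lower, Pparg (-1.59), Fabp4 (-1.53) and Lpl (-1.39). In all 6 lay below 0 and 2 above it, Cebpa (0.37) and Cidec (0.80), which did not pass. The list, mostly Fabp4 and Lpl, summed to 12.1 to 26.8 in sh8 against 36.4 to 70.4 in WT. Of the lung markers 2 passed as higher and 1 as lower, and of the red blood cell markers 1 passed as higher. The part of such cells in the line difference was not tested.

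Of these 8 genes, 2 have a second probe. It differed between the lines by -2.23 for Chaf1b and by -1.16 for Ccne1. Among members that did not pass, the second probes gave -0.33 for Cdc6, where the brighter probe gave -0.82, and -0.76 for Rfc4, where it gave -0.49.

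**Figure D4:**
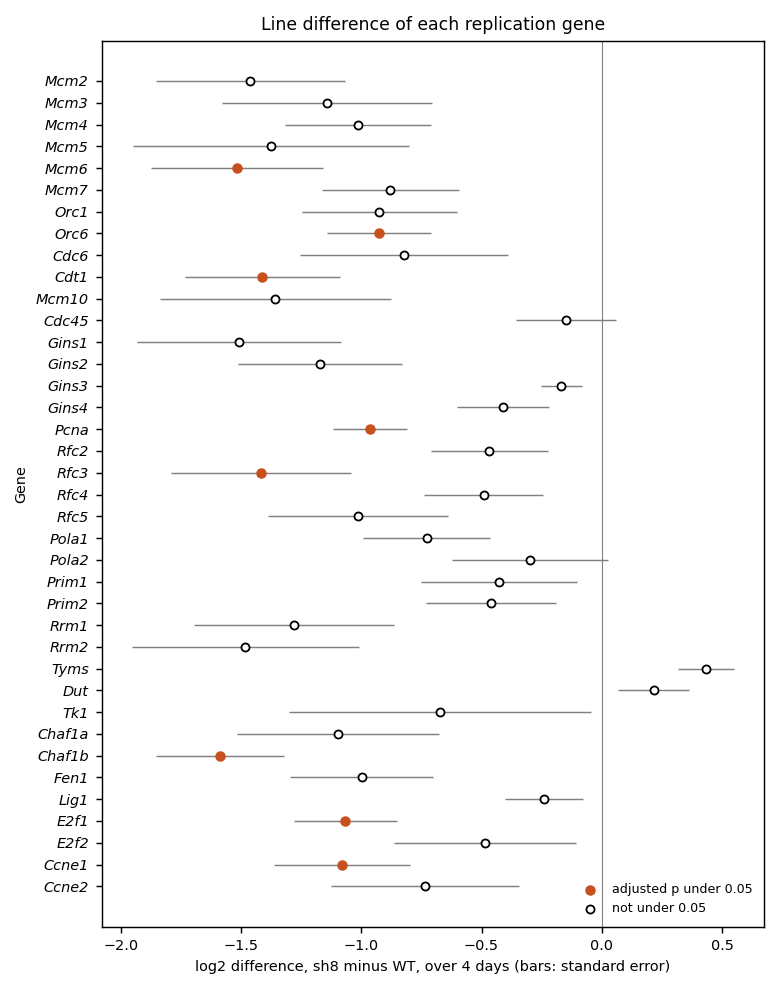
Each row is 1 gene and each point its log2 difference, sh8 minus WT, over the 4 days, with bars of 1 standard error. The 8 filled points, from -0.92 for Orc6 to -1.59 for Chaf1b, have an adjusted p under 0.05, and Tyms and Dut alone lie above 0.

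The line difference widened with the days. Members at least 2-fold lower in sh8 numbered 0, 5, 24 and 31 at days -2, 0, +2 and +4, against 4.08%, 4.11%, 5.42% and 5.17% of all genes. No member was at least 2-fold higher on any day, against 4.74%, 5.79%, 13.9% and 9.42% of all genes. The median differences were -0.07, -0.53, -1.19 and -1.93. In 35 of the 38 genes the difference was more negative at day +4 than at day +2, within the second scan. The share of all genes with such a shift is not given here. Among the 35 is Tyms, whose difference narrowed but stayed above 0 (0.38 and 0.18). Whether the difference after induction exceeded that before it was tested as an interaction of line and period. The periods are also the scans. An effect of the scan that differed between the lines thus cannot be told apart from this interaction. By limma 0 of the 38 passed (lowest adjusted p = 0.121, for Gins2), as did 0.00% of all genes, so a difference between the periods was not shown for any single gene. At an unadjusted p under 0.05, 30 members were lower and 0 higher after induction, against 7.96% and 12.0% of all genes. The median interaction was -1.15, with 37 of 38 below 0, against -0.01 and 13390 of 26460 for all genes. The largest were Tk1 (-2.48 ± 0.64 SE), Mcm5 (-2.29 ± 0.56) and Mcm10 (-1.92 ± 0.47). Gins2 (-1.45 ± 0.17) had the lowest p, and Gins3 (0.01 ± 0.14) stood at 0. With normexp background correction 18 members passed, all lower.

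**Figure D5:**
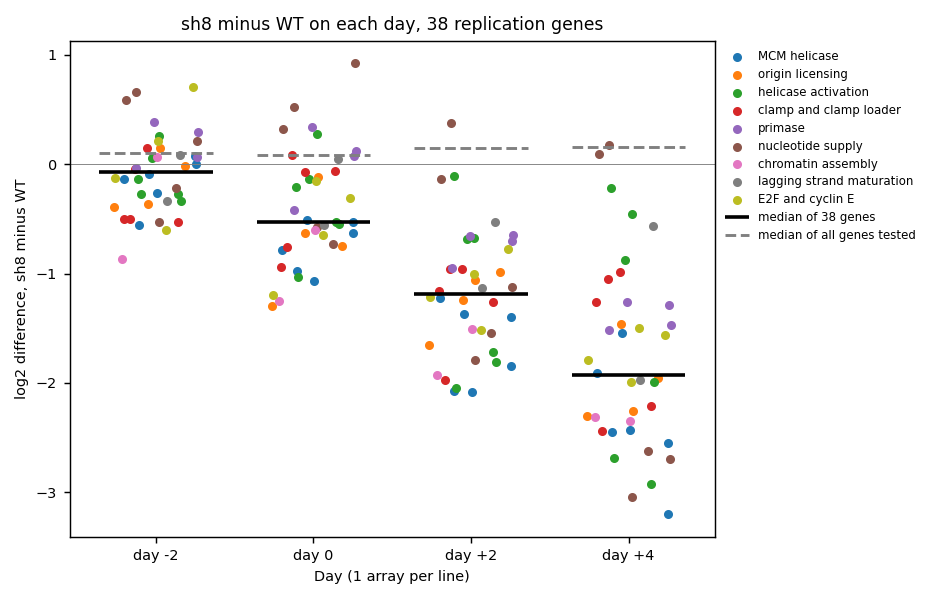
Points are the 38 genes, coloured by sub-group and spread sideways for legibility, and the vertical axis is the log2 difference, sh8 minus WT, on each day. Black bars, their medians, go from -0.07 at day -2 to -1.93 at day +4, while the dashed medians of all genes tested stay near 0.

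A further 74 genes of replication, nucleotide supply, E2F control and replication-coupled repair were counted in the same fit. Over the 4 days 12 were lower in sh8 and 3 higher (10.3% and 16.8% of all genes were), with a median of -0.54. At day +4 37 of the 74 were at least 2-fold lower (5.17% of all genes). Counts of 1 or 2 in the smaller lists are near the share of all genes. Among 8 other licensing genes 2 were lower, Orc4 (-0.60, adjusted p = 0.0396) and Mcm8 (-1.34, 0.0339), and Mcm9 was higher (0.70, 0.0499) but above background on 4 arrays only. Of 10 other origin firing genes 1 was lower, the replisome factor Donson (-0.73, adjusted p = 0.0264). Of 13 polymerase, RPA and loader genes 2 were lower, the single-strand binding subunit Rpa3 (-0.88, adjusted p = 0.0348) and the alternative loader subunit Dscc1 (-1.87, 0.0490). Of 14 other nucleotide genes 5 were lower, led by Samhd1, which degrades dNTPs (-0.85, adjusted p = 0.0147). Rrm2b (-0.55, adjusted p = 0.0360), Umps (-0.84, 0.0373) and Paics (-0.39, 0.0383) followed. Of 16 chromatin and repair genes 2 were lower, among them the histone mRNA binder Slbp (-0.90, adjusted p = 0.0372). Among 13 other E2F and pocket protein genes 0 were lower by limma (3 unadjusted) and 2 were higher. These were E2f6, a repressing E2F (1.32 ± 0.15 SE, adjusted p = 0.0124), and the pocket protein gene Rbl1 (0.82 ± 0.16, 0.0270).

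E2f6 stood at 0.28, -0.40, -0.11 and -0.07 in WT and at 1.52, 1.32, 0.87 and 1.30 in sh8, so the lines did not overlap. Rbl1 stood at -1.06, -2.31, -1.51 and -2.22 in WT and at -0.67, -1.05, -0.72 and -1.39 in sh8, higher on each day although the ranges of the lines overlap. From day 0 to day +2 over both lines, 5 of the 74 were higher, a smaller share than the 9.00% of all genes, among them Gmnn, the inhibitor of Cdt1 (2.28, adjusted p = 0.0450), Mcm8 (2.04, 0.0457) and Ticrr (2.43, 0.0492). Of the 74, only Tk2 was lower (-0.82, adjusted p = 0.0409).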

How the data were processed

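Per the file headers, the authors scanned each array in a single colour and read it with Agilent Feature Extraction, version 11.0.1.1. The deposited intensity of a spot is its processed signal. The authors also deposited a value table on the log2 scale, whose columns each correlated best with their own array (r 0.994 to 1.00 across probes) and share a median of 6.38. No source used here says how it was made, so it served as an alternative. Control spots and probes with an outlier flag were left out, and values are log2 processed intensity minus the array's 75th percentile. Accessions named 27201 of 39383 probes through a GRCm38.p6 table. The headers name mm9, so only the promoter windows have coordinates. Probes above background on fewer than 2 arrays were left out, and the brightest probe of a gene was kept.

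Tests used limma 3.58.1 in R 4.3.3, with day and line as terms (3 residual degrees of freedom), or with the interaction of line and period added (2), and Benjamini-Hochberg adjustment with a threshold of 0.05. The fit was also run on simulated data with independent noise and the same line difference on every day. The line differences of the members widened with the days, so that run does not speak to them. Single arrays have no test and are called at 1 or more on the log2 scale. Named in full were members past the threshold and, from each sub-group, those with the widest and the narrowest line difference at day +4, and from each other list up to 4 genes with the lowest p. A gene that this rule names is not reported here. Orc1, Cdc6, Cdc45, Tk1, Tyms, E2f2 and members given by single values were added after their values were seen. The members and lists were chosen with earlier results of these data known. Alternatives were quantile scaling, normexp (offset 50, on median in place of mean signals), the authors' values, no filter, the mean of all probes, the scan and left-out days.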

Additional observations from a re-analysis of the deposited data

Results flagged for a closer look

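In 6 of the 38 genes sh8 was higher than WT on both days before induction and lower on both days after it. No minimum size was set, and the share of all genes that meet this rule is not given here. The count alone therefore does not set the members apart. Whether the sign turned was not tested. The interaction of line and period, which asks only whether the difference changed, passed for none of the 6 by limma. The days before and after induction also lie on different scans. Tk1 differed by 0.21 and 0.92 and then by -1.12 and -2.70, an interaction of -2.48 (adjusted p = 0.187). Pola2 differed by 0.38 and 0.34 and then by -0.66 and -1.26 (interaction -1.32, adjusted p = 0.148). Its partners Prim1 and Prim2 had interactions of -1.26 (adjusted p = 0.192) and -1.06 (0.171), with differences before induction of at most 0.29. Cdc45 had -0.84 (adjusted p = 0.144), with differences before induction of 0.26 and 0.28, and Lig1 had -0.61 (0.168). For Prim2 (0.07 and 0.08) and Lig1 (0.08 and 0.05) the differences before induction were close to 0. At day -2 these 2 genes lay below the median difference of all genes tested, 0.10. The signs were kept in 6 of 6 with quantile scaling, with normexp and in the authors' values.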

How the results depend on the processing

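No paired analysis was possible because every array carries the same replicate number, 1, so the numbers pair nothing. The fit with day as a term already sets sh8 against WT within each day. For sh8 against WT, the 8 genes became 4 with quantile scaling, 17 with normexp and 5 in the authors' values. There were 4 with no filter on dim probes and 1, E2f1, with the scan as a block. The first scan alone gave 0 and the second alone 25. Leaving out day 0, day +2 or day +4 gave 0 each, and leaving out day -2 gave 10. All 8 genes were among the calls with normexp and on the second scan, 4 with quantile scaling and 5 in the authors' values. For day 0 against day -2 normexp gave 21 in place of 0, and for the interaction 18 in place of 0. For day +2 against day 0, normexp gave 3, no filter 0, no day -2 gave 2 and no day +4 gave 0, in place of 1. At day -2 the mean of all probes gave 1 gene at least 2-fold lower in sh8 in place of 0. Quantile scaling and the authors' values gave 0 genes at least 2-fold higher in sh8 at day +4 over day 0 in place of 2, and normexp gave 6 in place of 11 at day +2. The other 62 alternative values stayed within 1.5 times the main count. The interaction of Gins3, 0.01, lay below 0 with quantile scaling and in the authors' values, where all 38 members were below 0. Quantile scaling moved the median line difference of all genes from 0.13 to 0.02 and that of the members from -0.94 to -0.93. Normexp moved the all-gene median of day 0 against day -2 from 0.08 to 0.18. The cause of these shifts was not tested, except that fewer days leave fewer arrays in the fit.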

Other observations

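Markers of cycling cells outside the 38 genes were read on the same arrays, chosen here after their values were seen. Mki67, the proliferation marker Ki-67, followed another course than the replication genes. It stood at 2.61, -0.77, -1.15 and -2.23 in WT at days -2, 0, +2 and +4 and at 2.64, -0.58, 1.14 and -2.66 in sh8. In WT it was therefore lower after induction than at confluence, while at day +2 it was higher in sh8 than in WT. A second probe gave -1.64 in WT and 0.43 in sh8 at day +2. Ccnb1, the mitotic cyclin, was at 2.60, -0.38, 2.88 and 2.43 in WT and at 2.40, -0.97, 1.66 and -0.40 in sh8. The other 4 markers, Top2a, Cdk1, Aurka and Bub1, were at least 2-fold higher at day +2 than at day 0 in both lines. Of all genes 11.5% were in WT and 14.5% in sh8. At day +4 these 4 markers were 1.76 to 3.01 above day 0 in WT but -0.46 to 0.56 from it in sh8. Their sh8 levels then differed from WT by -2.15 to -2.96.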
